A study of Mus musculus with 24 samples.

Results

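The 10 genes described here are core and output genes of the circadian clock: Arntl, Clock and Npas2, which encode its activators, Per1, Per2, Per3 and Cry1, which encode its repressors, Nr1d1 and Nr1d2, which encode nuclear receptors of its second loop, and Dbp, which encodes an output transcription factor. They were taken by name, as the rows of the count matrix whose gene identifiers carry these symbols in the mouse GENCODE annotation, and make up 10 of the 53677 gene rows. The series sequenced total liver RNA, depleted of ribosomal RNA, from 24 mice of 2 inbred strains, and each mouse gave 1 library. The 4 groups were 6 mice of strain 129S1/SvImJ on a high-fat diet, 5 of 129S1/SvImJ on chow, 7 of strain C57BL/6J on a high-fat diet and 6 of C57BL/6J on chow. No source used here gives sex, age, diet composition or how long the mice were fed. Nor is the hour of liver collection given, and since the RNA of these genes depends on that hour in mouse liver, an effect of diet or strain and a difference in collection hour between groups cannot be told apart.

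The clock of a liver cell is a feedback loop of transcription. A dimer of BMAL1, the product of Arntl, with CLOCK or its relative NPAS2 binds E-box sequences and switches on the Per and Cry genes, Nr1d1, Nr1d2 and Dbp. PER and CRY proteins then block the dimer, while REV-ERBalpha and REV-ERBbeta, the products of Nr1d1 and Nr1d2, compete with ROR receptors at ROR elements and repress Arntl, Clock and Npas2. DBP acts on D-box sequences, which lie in Per genes and in many liver genes of metabolism. In liver the RNA of Arntl, Clock and Npas2 peaks at the opposite part of the day from that of Dbp and the Per genes, and feeding time sets the phase.

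Promoter sequences show where 3 of these binding motifs lie. RefSeq windows on GRCm38.p6, from 250 bases before to 50 after each annotated start, were available for 9 of the 10 genes, as 13 windows, and 6 windows held a match on either strand to the E-box CACGTG, to the D-box TTATGTAA or TTACGTAA, or to the core AGGTCA of the ROR element (TGACCT on the other strand). No match overlapped another. The 4 sequences chosen for print are those of Per1 and Cry1, with the E-boxes, of Per3, with both D-boxes, and a short stretch of Arntl, with the ROR core. Matches are in capitals and all sequences run 5′ to 3′ on the gene's strand. They lie at chr11:69098699-69098948 on the plus strand (Per1), chr10:85185055-85185304 on the minus strand (Cry1), chr4:151044666-151044915 on the minus strand (Per3) and chr7:113207530-113207559 on the plus strand (Arntl).
Per1: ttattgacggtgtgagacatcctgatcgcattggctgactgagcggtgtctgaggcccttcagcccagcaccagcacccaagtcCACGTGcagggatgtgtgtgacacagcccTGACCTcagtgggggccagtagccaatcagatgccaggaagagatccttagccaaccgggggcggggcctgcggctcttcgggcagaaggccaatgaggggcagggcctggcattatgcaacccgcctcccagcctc
Cry1: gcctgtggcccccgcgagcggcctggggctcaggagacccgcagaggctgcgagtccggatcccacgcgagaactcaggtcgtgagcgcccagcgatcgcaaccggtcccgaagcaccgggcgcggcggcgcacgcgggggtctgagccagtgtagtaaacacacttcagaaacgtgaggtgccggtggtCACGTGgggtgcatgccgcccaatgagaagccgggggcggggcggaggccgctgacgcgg
Per3: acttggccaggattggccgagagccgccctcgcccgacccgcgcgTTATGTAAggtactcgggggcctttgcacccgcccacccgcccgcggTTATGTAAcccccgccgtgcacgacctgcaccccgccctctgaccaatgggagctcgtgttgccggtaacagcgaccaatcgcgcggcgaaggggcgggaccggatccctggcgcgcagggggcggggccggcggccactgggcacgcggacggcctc
Arntl: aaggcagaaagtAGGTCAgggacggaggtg

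The E-box letters stood in 7.15% of all 32851 promoter windows of the same length, the D-box letters in 1.06% and the ROR core in 16.3%. The E-box of Cry1 began 60 bases and that of Per1 166 bases before the annotated start. The D-boxes of Per3 began 205 and 158 bases before it. The ROR core of Arntl lay 32 bases after the start, within the annotated first exon, and Clock, Per1 and Nr1d2 each had a match to the same core in a window. A match is a run of letters and not a measured binding site.

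The libraries held between 6707013 and 13124881 gene counts. All values below are CPM, counts relative to the library's total after scaling by TMM factors, and tests are the quasi-likelihood test of edgeR over the 14533 genes that passed a filter on low counts, with Benjamini-Hochberg adjustment and a threshold of 0.05. All 10 clock genes passed the filter. Since each library is 1 mouse, the p-values measure the spread between mice. Liver tissue mixes cell types, so fewer cells of a type and less RNA per cell cannot be told apart. All 9 hepatocyte markers had counts in each group. Of 7 adipocyte markers, 5 to 7 had counts in a group, and the summed level of Adipoq, Plin1 and Lep passed 1 CPM in replicate 1 of 129S1/SvImJ on chow (1.36 CPM) and in replicate 5 of C57BL/6J on high-fat diet (6.07 CPM). The small nuclear RNA Rn7sk ran from 2097 to 7259 CPM, and 10 libraries at its low level and 14 at its high level were also compared apart. The low level ended at 2765 CPM and the high level began at 3218 CPM, a cut chosen after the values had been seen.

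Per kilobase of exon, which allows levels to be compared between genes, Dbp and Nr1d1 stood at the top with means over the 24 livers of 56.6 ± 11.6 and 41.9 ± 15.2 CPM per kb (SD, n = 24 each). Nr1d2 followed with 31.0 ± 3.62 CPM per kb. The Per genes lay close together, Per3 at 12.04 ± 4.14, Per2 at 11.4 ± 3.97 and Per1 at 9.85 ± 3.85 CPM per kb. Whether their levels differed was not tested. Clock averaged 5.95 ± 1.258 CPM per kb and Cry1 2.62 ± 0.855. Arntl and Npas2 were the lowest, with 0.461 ± 0.309 and 0.153 ± 0.130 CPM per kb. Npas2 rested on 179 counts and Arntl on 851 counts over all 24 libraries, against 42763 counts for Dbp, so values of Npas2 and Arntl carry the largest counting error.

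**Figure D1:**
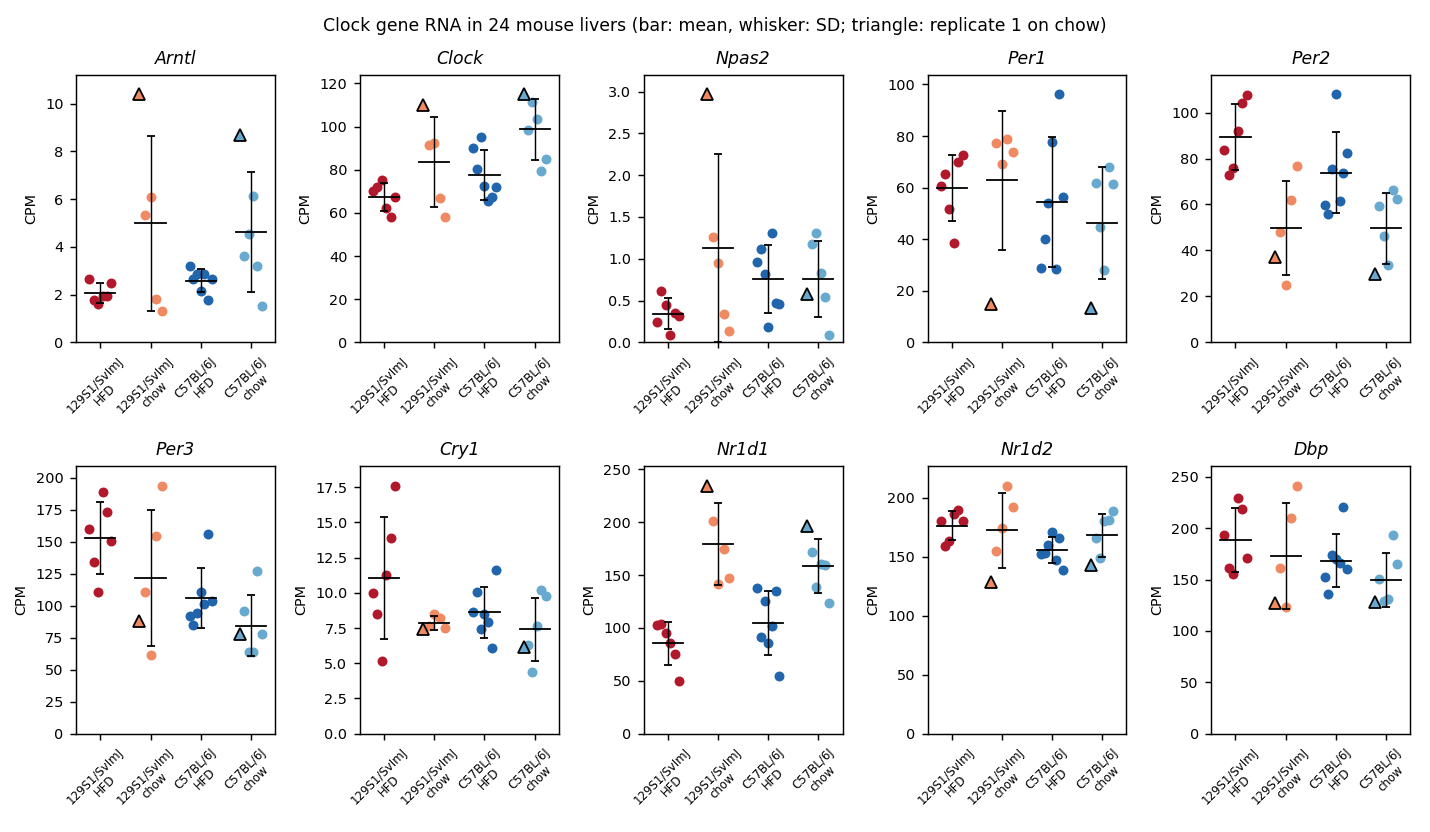
Level of each clock gene in CPM (vertical axis, from 0) in the 24 livers by group (horizontal axis, high-fat diet left of chow within each strain), with 1 point per mouse, the group mean as a bar and the SD as a whisker. Nr1d1 of 129S1/SvImJ is the panel in which the diet groups do not overlap, and the triangles mark replicate 1 on chow, with Arntl at 10.4 and 8.69 CPM and Per1 at 14.7 and 13.2 CPM in 129S1/SvImJ and C57BL/6J.

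The comparison of diets in 129S1/SvImJ asked whether clock gene RNA differed between mice on high-fat diet and on chow. Nr1d1 was about 2-fold lower on high-fat diet, Arntl was lower, Per2 was higher, and the other 7 genes did not pass the test. In all 3 of 10 clock genes were called, 1 higher and 2 lower, beside 10.4% of all tested genes (5.41% higher, 5.01% lower). The median log2 fold change of the 10 genes was -0.02, beside -0.004 over all tested genes. Only Nr1d1 had groups that did not overlap, 1 of 10 genes beside 7.73% of all tested genes.

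Nr1d1 (ENSMUSG00000020889.11, mm10 chr11:98767932-98775333, minus strand), the gene of the repressor REV-ERBalpha, ran from 49.7 to 103.8 CPM with a median of 90.7 in 129S1/SvImJ on high-fat diet, and read 234.6, 200.9, 141.5, 174.3 and 147.0 CPM in replicates 1 to 5 on chow. The highest liver on high-fat diet stayed below the lowest on chow, and chow replicates 1 and 2 were the highest. The means were 85.5 ± 20.5 CPM (SD, n = 6) on high-fat diet and 179.7 ± 38.8 CPM (SD, n = 5) on chow. The log2 fold change was -1.07 (SE 0.21, edgeR adjusted p = 0.00203). It was called in all 24 fits that left out 1 library, with log2 fold changes of -1.14 to -0.95. Within the low Rn7sk level it was -0.97 (adjusted p = 0.0207) and within the high level -1.01 (adjusted p = 0.163), by edgeR.

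Per2 (ENSMUSG00000055866.9, chr1:91415982-91459324, minus strand), a repressor gene, ran from 72.9 to 107.5 CPM with a median of 88.0 in 129S1/SvImJ on high-fat diet, and read 37.1, 47.8, 24.96, 62.2 and 76.9 CPM in replicates 1 to 5 on chow. Only chow replicate 5 reached into the range of the high-fat group. The means were 89.4 ± 14.4 CPM (SD, n = 6) on high-fat diet and 49.8 ± 20.4 CPM (SD, n = 5) on chow, a log2 fold change of 0.84 (SE 0.25, edgeR adjusted p = 0.0347). The call held in 18 of 24 fits that left out 1 library and ended without chow replicate 1, 2 or 3 or high-fat replicate 4, 5 or 6, with adjusted p of up to 0.104. Within the low and the high Rn7sk level the log2 fold change was 0.46 (adjusted p = 0.662) and 1.13 (adjusted p = 0.109).

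Arntl (ENSMUSG00000055116.8, chr7:113207465-113314126, plus strand), the gene of the activator BMAL1, ran from 1.62 to 2.65 CPM with a median of 1.95 in 129S1/SvImJ on high-fat diet, and read 10.4, 5.34, 6.07, 1.80 and 1.31 CPM in replicates 1 to 5 on chow. Chow replicates 1 to 3 lay above the whole high-fat group, replicate 4 within it and replicate 5 below it. The means were 2.07 ± 0.41 CPM (SD, n = 6) on high-fat diet and 4.98 ± 3.68 CPM (SD, n = 5) on chow, a log2 fold change of -1.27 (SE 0.41, edgeR adjusted p = 0.0462). The call held in 7 of 24 fits that left out 1 library, those without replicate 1, 4, 5 or 6 of C57BL/6J on chow, replicate 6 of C57BL/6J on high-fat diet or replicate 4 or 5 of 129S1/SvImJ on chow. Over the 24 fits the log2 fold change ran from -1.51 to -0.82 and the adjusted p from 0.0107 to 0.242. Without chow replicate 1, which also held adipocyte transcripts, the log2 fold change was -0.82, and with 1 mean per first number of the mouse ID it was -0.71 (adjusted p = 0.203 by edgeR).

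The partners of BMAL1 showed the same order of means without passing the test. Clock (ENSMUSG00000029238.11, chr5:76209868-76304792, minus strand) averaged 67.5 ± 6.396 CPM (SD, n = 6) in 129S1/SvImJ on high-fat diet and 83.7 ± 20.9 CPM (SD, n = 5) on chow, with a log2 fold change of -0.31 (SE 0.13, edgeR adjusted p = 0.15). Npas2 (ENSMUSG00000026077.15, chr1:39193731-39363236, plus strand) averaged 0.345 ± 0.181 CPM on high-fat diet and 1.13 ± 1.12 CPM on chow, with -1.66 (SE 0.61, adjusted p = 0.0825). Npas2 read 2.97 CPM in chow replicate 1, and 0.131 to 1.256 CPM in the other 4 chow livers.

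Of the other repressors, Per3 (ENSMUSG00000028957.12, chr4:151003652-151044665, minus strand) averaged 153 ± 28.0 CPM (SD, n = 6) on high-fat diet and 122 ± 52.9 CPM (SD, n = 5) on chow in 129S1/SvImJ, and did not pass (adjusted p = 0.428 by edgeR). Cry1 (ENSMUSG00000020038.10, chr10:85131700-85185064, minus strand) averaged 11.1 ± 4.33 CPM on high-fat diet and 7.85 ± 0.478 CPM on chow (adjusted p = 0.215). Its high-fat livers ran from 5.13 to 17.6 CPM and enclosed all 5 chow livers, which ran from 7.42 to 8.499 CPM. Per1 (ENSMUSG00000020893.17, chr11:69095217-69109960, plus strand) averaged 59.8 ± 12.8 CPM on high-fat diet and 62.8 ± 27.1 CPM on chow (adjusted p = 0.939). Chow replicate 1 read 14.7 CPM of Per1 and the other 4 chow livers 69.3 to 78.8 CPM.

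Nr1d2 (ENSMUSG00000021775.11, chr14:18204054-18239127, minus strand), the gene of REV-ERBbeta and relative of Nr1d1, averaged 176 ± 12.4 CPM (SD, n = 6) on high-fat diet and 172 ± 31.7 CPM (SD, n = 5) on chow in 129S1/SvImJ. Its log2 fold change of 0.03 had a 95% interval of -0.16 to 0.23, which does not reach the fold change of Nr1d1. Dbp (ENSMUSG00000059824.12, chr7:45705088-45710203, plus strand) averaged 188 ± 31.1 CPM on high-fat diet and 173 ± 51.8 CPM on chow, with a log2 fold change of 0.12 and a 95% interval of -0.21 to 0.46. The edgeR adjusted p was 0.875 for Nr1d2 and 0.69 for Dbp.

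The same comparison in C57BL/6J called 1 of 10 clock genes, Nr1d1, which was lower on high-fat diet, beside 14.9% of all tested genes (7.66% higher, 7.2% lower). The median log2 fold change was 0.11 over the 10 genes and 0.007 over all tested genes. In none of the 10 genes were the groups free of overlap, beside 3.89% of all tested genes. Nr1d1 ran from 54.4 to 137.9 CPM with a median of 101.6 in the 7 livers on high-fat diet, and from 123.3 to 196.6 CPM with a median of 159.8 in the 6 livers on chow. Of the high-fat livers, replicates 1, 3 and 6 overlapped the chow group and the other 4 lay below it. The means were 104.5 ± 30.4 CPM (SD, n = 7) on high-fat diet and 158.3 ± 25.6 CPM (SD, n = 6) on chow, a log2 fold change of -0.60 (SE 0.19, edgeR adjusted p = 0.0374).

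This call held in 16 of 24 fits that left out 1 library, with log2 fold changes of -0.68 to -0.49. It ended without chow replicate 1, 2, 4 or 5 or high-fat replicate 2, 4, 5 or 7 of C57BL/6J, with adjusted p of Nr1d1 of up to 0.087. It also ended in an edgeR fit of only the C57BL/6J groups (adjusted p = 0.0573). Within the low Rn7sk level the log2 fold change was -0.98 (adjusted p = 0.0241) and within the high level -0.35 (adjusted p = 0.519). Nr1d1 shares 263 exon bases, 8.55% of its exon length, with Thra on the opposite strand. The library kit keeps strand, and no source used here says whether the counting used it. Thra had 3657 counts over the 24 libraries, against 32008 for Nr1d1, and was not called for diet in 129S1/SvImJ (log2 fold change -0.32, adjusted p = 0.123) or C57BL/6J (adjusted p = 1).

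Some markers of liver cell types moved with diet as well. The summed level of the 9 hepatocyte markers ran from 62555 to 88224 CPM in C57BL/6J on high-fat diet and from 95356 to 102467 CPM on chow, with no overlap. It ran from 65396 to 86613 CPM in 129S1/SvImJ on high-fat diet and from 78347 to 98515 CPM on chow, with overlap. In C57BL/6J 4 of the 9 fell, among them Alb (log2 fold change -0.43, edgeR adjusted p = 0.0037), Hnf4a (-0.53, adjusted p = 0.00798) and Cps1 (-0.65, adjusted p = 0.0252), with a list median of -0.42, and in 129S1/SvImJ 1 fell, Apoa1 (-0.48, adjusted p = 0.0265), with a list median of -0.18. Of 7 genes listed as adipocyte markers 3 could be tested, and these rose in C57BL/6J. They were Lipe (0.74, edgeR adjusted p = 0.000175), Fabp4 (1.59, adjusted p = 0.000832) and Cidea. Cidea averaged 17.8 ± 15.6 CPM (SD, n = 7) on high-fat diet and 0.0679 ± 0.0799 CPM (SD, n = 6) on chow (adjusted p = 0.000377). Of the listed genes that were too low to test, Adipoq, Plin1 and Lep summed to 6.07 CPM in replicate 5 of C57BL/6J on high-fat diet. They summed to at most 0.149 CPM in the other livers of that group. Whether the RNA of Lipe, Fabp4 and Cidea came from fat cells was not tested. The summed level of all 7 ran from 41.7 to 113.5 CPM in C57BL/6J on high-fat diet and from 30.9 to 34.8 CPM on chow, and from 26.5 to 36.8 CPM in 129S1/SvImJ on high-fat diet and from 19.6 to 30.5 CPM on chow. Plin1 and Lep had no counts in C57BL/6J on chow, and Retn and Cidea had none in 129S1/SvImJ on chow. Of 10 tested Kupffer cell and macrophage markers 1 rose in 129S1/SvImJ (list median 0.72). By edgeR 0 were called in C57BL/6J (list median 0.19). Of 8 stellate cell markers 1 rose in 129S1/SvImJ (list median -0.11) and 2 rose in C57BL/6J (0.39). No lymphocyte and neutrophil, endothelial, cholangiocyte or erythroid marker was called by edgeR in either strain. Of all tested genes 10.4% were called in 129S1/SvImJ and 14.9% in C57BL/6J. The part of these markers in the clock gene differences was not tested.

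The other 9 genes did not pass the edgeR test in C57BL/6J. DESeq2 called Clock (log2 fold change -0.34, adjusted p = 0.0435) and Per2 (0.58, adjusted p = 0.0428) besides Nr1d1. Arntl ran from 1.78 to 3.20 CPM with a median of 2.64 on high-fat diet and from 1.52 to 8.69 CPM with a median of 4.09 on chow. Chow replicates 1 to 4 lay above all 7 livers on high-fat diet, with means of 2.59 ± 0.48 CPM (SD, n = 7) on high-fat diet and 4.62 ± 2.51 CPM (SD, n = 6) on chow. The log2 fold change of Arntl was -0.81 (SE 0.36, edgeR adjusted p = 0.129). Clock averaged 77.5 ± 11.5 CPM on high-fat diet and 98.8 ± 14.3 CPM on chow, with -0.35 (SE 0.12, adjusted p = 0.0565). It passed in 7 of 24 fits that left out 1 library, those without replicate 5 or 6 of C57BL/6J on chow, replicate 1 or 3 of C57BL/6J on high-fat diet or replicate 1, 4 or 5 of 129S1/SvImJ on chow.

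Per2 in C57BL/6J averaged 73.9 ± 17.8 CPM (SD, n = 7) on high-fat diet and 49.6 ± 15.5 CPM (SD, n = 6) on chow, with a log2 fold change of 0.57 (SE 0.23, edgeR adjusted p = 0.095). Per3 averaged 106 ± 23.7 CPM on high-fat diet and 84.3 ± 24.01 CPM on chow, with 0.33 (SE 0.22, adjusted p = 0.346). The remaining 5 genes, Npas2, Per1, Cry1, Nr1d2 and Dbp, had log2 fold changes between -0.11 and 0.23 with adjusted p from 0.426 to 0.968. The 95% interval of Dbp in C57BL/6J was -0.14 to 0.48 and that of Nr1d2 -0.29 to 0.07.

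**Figure D2:**
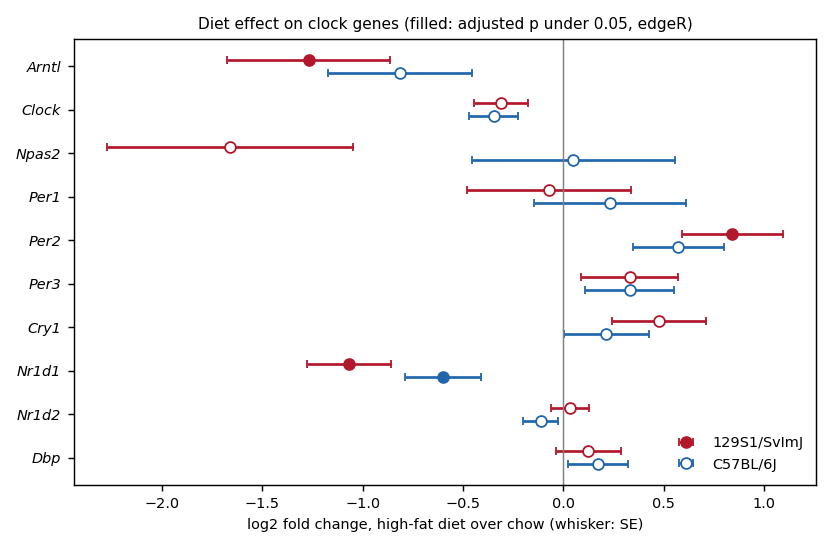
Log2 fold change of each clock gene on high-fat diet over chow (horizontal axis; whisker, SE) in 129S1/SvImJ and C57BL/6J, with filled points where the edgeR adjusted p was under 0.05. Nr1d1 lies at -1.07 and -0.60 in the 2 strains, and Arntl and Clock lie left of 0 and Per2 right of 0 in both.

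Whether the diet effect differed between strains was tested by the interaction, and 0 of 10 clock genes were called by edgeR, beside 0.296% of all tested genes. Npas2 alone had an unadjusted p under 0.05 (difference of log2 fold changes, 129S1/SvImJ minus C57BL/6J, -1.71, SE 0.80, adjusted p = 0.325). For Nr1d1 the difference was -0.47 with a 95% interval of -1.06 to 0.12 and an adjusted p of 0.475. DESeq2, limma-voom and limma on the deposited variance-stabilized values called 0 of the 10 as well.

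Between strains, 129S1/SvImJ against C57BL/6J, edgeR called 0 of 10 clock genes on high-fat diet, beside 37% of all tested genes, and 0 of 10 on chow, beside 25%. In no clock gene were the strains free of overlap on either diet, beside 15.1% of all tested genes on each. Per3 had the smallest p of the 10 on both diets. It ran from 111 to 189 CPM with a median of 155 in 129S1/SvImJ on high-fat diet, and from 85.1 to 156 CPM with a median of 101 in C57BL/6J on high-fat diet. Of the C57BL/6J livers 5 of 7 lay below the lowest 129S1/SvImJ liver, and replicate 6 stood highest.

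The log2 difference of Per3 between strains was 0.53 on high-fat diet (SE 0.22, edgeR adjusted p = 0.062) and 0.53 on chow (SE 0.24, adjusted p = 0.115). DESeq2 and limma-voom called it on high-fat diet, with adjusted p of 0.0335 and 0.044, and edgeR did so without replicate 6 of C57BL/6J on high-fat diet (0.0242), replicate 3 of 129S1/SvImJ on high-fat diet (0.0418), or replicate 3 or 5 of 129S1/SvImJ on chow (0.0319 and 0.038). On chow edgeR called Per3 without replicate 3 of 129S1/SvImJ (0.0246) or replicate 5 of C57BL/6J (0.043). The first number of the mouse ID is shared by mice within a group. An edgeR fit with 1 mean per first number called Per3 (adjusted p = 0.0238) and Nr1d2 (0.0284) on high-fat diet. On chow it called Per3 (0.0369) and Clock (log2 difference -0.33, adjusted p = 0.00536). This fit leaves the spread between numbers out of its error, so its p-values can be too small. With replicate numbers as a block Clock was called on chow as well (adjusted p = 0.0106). Nr1d2 was the other gene with an unadjusted p under 0.05 on high-fat diet (log2 difference 0.18, adjusted p = 0.107), and on chow Per3 was the only such gene. Dbp shares 539 exon bases, 18.0% of its exon length, with Sphk2 on the opposite strand. Sphk2 was lower in 129S1/SvImJ on high-fat diet (log2 difference -0.79, adjusted p = 0.000113) and on chow (-0.57, adjusted p = 0.00857), while Dbp was not called (0.16 and 0.21, adjusted p = 0.415 and 0.385).

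The spread between mice was itself unequal. The biological coefficient of variation that edgeR estimated within groups was 55.3% for Npas2, 46.6% for Per1 and 42.5% for Arntl, at least as large as in 98.6%, 97.5% and 96.6% of all tested genes. It was 11.7% for Nr1d2, above 42.1% of tested genes. For 8 of 10 clock genes the SD of log2 CPM was smaller on high-fat diet than on chow in both strains, which was so for 25.6% of all tested genes. Arntl had an SD of 0.25 on high-fat diet and 1.18 on chow in 129S1/SvImJ, and of 0.27 on high-fat diet and 0.82 on chow in C57BL/6J, on the log2 scale. The exceptions were Cry1 and Nr1d1. Cry1 had an SD of 0.60 on high-fat diet and 0.08 on chow in 129S1/SvImJ. Nr1d1 had 0.40 on high-fat diet and 0.31 on chow in 129S1/SvImJ, and 0.47 on high-fat diet and 0.24 on chow in C57BL/6J.

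Single livers stood at the ends of the range on chow. Replicate 1 of 129S1/SvImJ on chow was the highest of its group for Arntl, Clock, Npas2 and Nr1d1 and the lowest for Per1, Cry1 and Nr1d2. Replicate 1 of C57BL/6J on chow was the highest for Arntl, Clock and Nr1d1 and the lowest for Per1, Per2, Nr1d2 and Dbp. Each was thus an extreme of its group for 7 of the 10 genes. Replicate 3 of 129S1/SvImJ on chow was an extreme for 5. In the high-fat groups the most was 5 as well, in replicate 3 of 129S1/SvImJ and replicate 6 of C57BL/6J. How many genes chance would give was not computed. Replicate 5 of each chow group was an extreme for 6 genes. In 129S1/SvImJ it was the highest for Per2, Per3 and Dbp and the lowest for Arntl, Clock and Npas2, and in C57BL/6J the highest for Per1, Per2, Per3, Cry1 and Dbp and the lowest for Clock. Without replicate 1 of both chow groups, Nr1d1 stayed called in 129S1/SvImJ (log2 fold change -0.95, edgeR adjusted p = 0.0104) and was not called in C57BL/6J (-0.53, adjusted p = 0.0822). Per2 (0.75, adjusted p = 0.0853) and Arntl (-0.82, adjusted p = 0.188) were not called in 129S1/SvImJ without them.

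Across mice the levels of the clock genes were related within groups. After subtraction of the group mean, 23 of the 45 pairs of clock genes had a Pearson correlation over the 24 livers that passed a permutation test within groups (100000 resamples, two-sided, adjusted over the 45 pairs), 10 positive and 13 negative. By Spearman's rho 31 pairs passed, all 23 among them. Mice that share the first number of the mouse ID may not be exchangeable with the rest of their group, and 7 of the 10 clock genes had an unadjusted p under 0.05 between these numbers. With means subtracted and permutation done within the 8 numbers, 1 pair passed by r, Per3 with Dbp, and 2 by rho, while all 23 pairs kept their sign. Per3 and Dbp were the closest pair, with r = 0.93 (permutation p = 1e-05, the smallest the resamples can give, adjusted 0.00045) and rho = 0.87 (permutation p = 2e-05, adjusted 0.0009). Their r was 0.90 without the 2 livers farthest from the median of Per3, 0.99 and 0.94 within the low and high Rn7sk level, and 0.93 on high-fat diet and 0.93 on chow. Within ID numbers r was 0.87 and rho 0.85 (permutation p = 1e-05 and adjusted p = 0.00045 for each).

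The activators went against Dbp. Clock and Dbp had r = -0.82 (permutation p = 9e-05, adjusted 0.00202) and rho = -0.75 (p = 0.00051, adjusted 0.00431), with r = -0.74 without the 2 farthest livers. Within the Rn7sk levels their r was -0.98 (low) and -0.69 (high), and within the diets -0.56 (high-fat diet) and -0.95 (chow). Within ID numbers r was -0.55 (permutation p = 0.0282, adjusted 0.141) and rho -0.48 (p = 0.0472, adjusted 0.182). Arntl and Dbp had r = -0.72 (permutation p = 0.0026, adjusted 0.0108) and rho = -0.64 (p = 0.00638, adjusted 0.0149), with r = -0.66 without the 2 farthest livers. Their r was -0.94 and -0.86 within the low and high Rn7sk level, but -0.27 over the 13 livers on high-fat diet and -0.87 over the 11 on chow. Within ID numbers r was -0.47 (permutation p = 0.0884, adjusted 0.201) and rho -0.44 (p = 0.0836, adjusted 0.188).

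Arntl and Clock varied together, with r = 0.79 (permutation p = 0.00041, adjusted 0.00414) and rho = 0.71 (p = 0.00207, adjusted 0.00847). Their r was 0.72 without the 2 farthest livers, 0.96 and 0.72 within the low and high Rn7sk level, and 0.31 on high-fat diet and 0.92 on chow. Within ID numbers r was 0.63 (permutation p = 0.013, adjusted 0.117) and rho 0.63 (p = 0.00762, adjusted 0.0857). Per2 went with Dbp (r = 0.76, permutation p = 0.00024, adjusted 0.0036, rho = 0.78, p = 0.00013, adjusted 0.00292, r = 0.72 without the 2 farthest livers). Its r with Dbp was 0.89 and 0.69 within the low and high Rn7sk level, and 0.45 on high-fat diet and 0.90 on chow. Within ID numbers the r of Per2 with Dbp was 0.61 (permutation p = 0.00805, adjusted 0.0943) and rho 0.52 (p = 0.0273, adjusted 0.176). All 23 pairs kept their sign in each of the 6 subsets examined, namely the low and the high Rn7sk level, each diet, without the 2 farthest livers, and without replicate 1 of both chow groups.

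Of the 9 pairs that hold Nr1d1 only that with Cry1 passed by Pearson's r. Its r with Dbp was -0.04 (permutation p = 0.866, adjusted 0.886, rho = -0.09, p = 0.694, adjusted 0.71, r = -0.16 without the 2 farthest livers), -0.95 within the low and 0.33 within the high Rn7sk level, and 0.17 on high-fat diet and -0.32 on chow. Its r with Arntl was 0.27 (permutation p = 0.135, adjusted 0.16, rho = 0.24, p = 0.259, adjusted 0.299, r = 0.13 without the 2 farthest livers), 0.98 within the low and 0.005 within the high level, and -0.17 on high-fat diet and 0.67 on chow. Nr1d1 and Cry1 had r = -0.57 (permutation p = 0.00522, adjusted 0.0138, rho = -0.59, p = 0.00254, adjusted 0.00879). That r was -0.50 without the 2 farthest livers, -0.11 and -0.67 within the low and high Rn7sk level, and -0.71 on high-fat diet and -0.20 on chow. Within ID numbers r was -0.49 (permutation p = 0.0693, adjusted 0.195) and rho -0.44 (p = 0.0701, adjusted 0.188).

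The number of pairs that passed differed between subsets of unequal size, with 17 of 45 over the 10 livers of low Rn7sk level, 3 over the 14 of high level, 1 over the 13 on high-fat diet (Per3 with Dbp) and 16 over the 11 on chow. Without replicate 1 of both chow groups 19 pairs passed over 22 livers. These subsets and the ID numbers as groups were chosen after the data had been seen. The low Rn7sk level held replicates 1, 2 and 5 of each chow group, and chow livers made up more of it than of the high level. In each chow group replicate 1 was an extreme for 7 genes and replicate 5 for 6, as given above. The r values printed for the low level rest on these livers too. Whether the Rn7sk level or these livers made the levels differ was not tested.

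**Figure D3:**
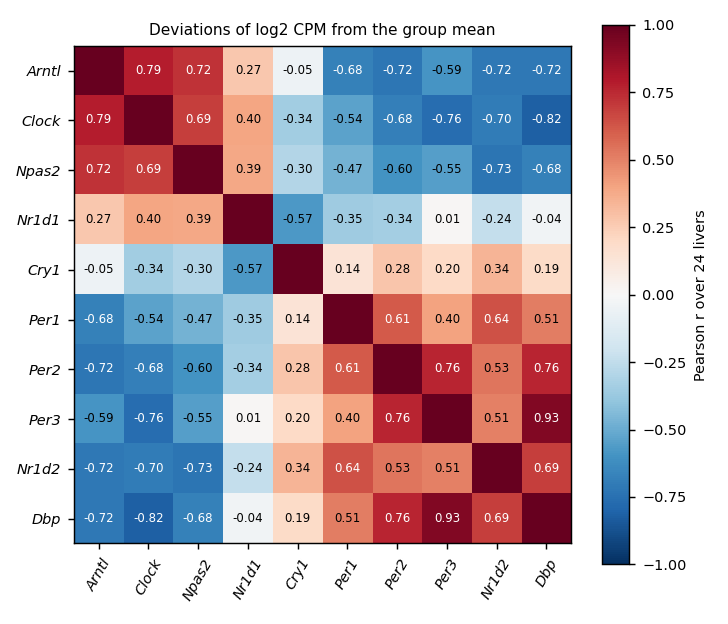
Pearson r between the log2 CPM of each pair of clock genes over 24 livers after subtraction of the group mean (colour from -1, blue, to 1, red, with r printed in each cell). Arntl, Clock and Npas2 form a red block, Per1, Per2, Per3, Nr1d2 and Dbp form another, the rectangle between them is blue, and Per3 with Dbp has the highest r, 0.93.

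**Figure D4:**
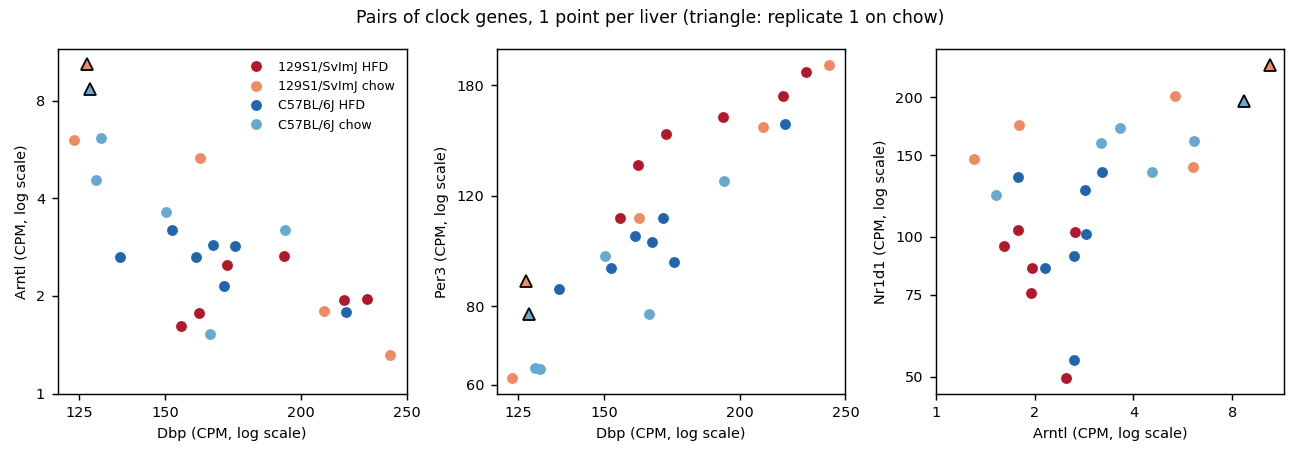
CPM of Arntl against Dbp, of Per3 against Dbp and of Nr1d1 against Arntl (log axes), with 1 point per liver coloured by group and triangles for replicate 1 on chow. Arntl runs downward with Dbp and Per3 upward, and the last panel shows no such order, with r = 0.27 between Nr1d1 and Arntl after group centring.

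Outside the 10 genes, those most like Arntl and Dbp across the 24 livers were ranked by r of the group-centred log2 CPM among 10155 genes with a mean of at least 5 CPM. Among the nearest to Arntl were Net1 (r = 0.92) and St5 (0.85), and farthest were Ciart (-0.90), a repressor of the clock loop, Usp2 (-0.88), a ubiquitin protease, and Coq10b (-0.86). Nearest to Dbp were Tef (r = 0.89), a close relative of Dbp, Hook2 (0.87) and Mcoln1 (0.86), and farthest were Lonp2 (-0.84), a peroxisomal protease, Insig2 (-0.84), a brake on sterol synthesis, and Mreg (-0.83). For a gene drawn from all those ranked, 95% of r values with Arntl fell between -0.55 and 0.55, and with Dbp between -0.58 and 0.57.

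Other genes of the loop, 9 of 10 of which were tested, were read from a list. For diet in 129S1/SvImJ 1 rose and 1 fell, beside 5.41% and 5.01% of all tested genes, with a list median of 0.14 beside -0.004. This background holds for the other lists in that strain, and in C57BL/6J it was 7.66% higher and 7.2% lower. Bhlhe40, a repressor of E-box genes, averaged 91.4 ± 10.1 CPM (SD, n = 6) on high-fat diet and 148 ± 19.1 CPM (SD, n = 5) on chow, and fell (log2 fold change -0.70, edgeR adjusted p = 0.000263). In C57BL/6J Rora fell (-0.28, adjusted p = 0.0329), and the list median was -0.01 beside 0.007.

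Between strains, 4 of the 9 loop genes were higher and 1 lower in 129S1/SvImJ on high-fat diet, beside 37% of all tested genes called in either direction, and 0 higher and 1 lower on chow, beside 25%. On high-fat diet Nfil3, a repressor at D-boxes (log2 difference 0.56, edgeR adjusted p = 0.00624), and Cry2 (0.35, adjusted p = 0.00902) were higher and Bhlhe40 was lower (-0.62, adjusted p = 6.3e-05). On chow Rora was lower (-0.34, adjusted p = 0.0132). The list median was 0.35 on high-fat diet and 0.19 on chow, beside 0.005 and 0.010 over all tested genes. Of 18 kinases, ligases and cofactors of clock proteins 0 were called for diet in 129S1/SvImJ by edgeR (4 at an unadjusted p under 0.05, 1 by DESeq2 and 2 by limma-voom) and 1, Sirt1, fell in C57BL/6J (-0.25, adjusted p = 0.0387).

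Of 20 genes known for a daily rhythm in liver, 6 rose and 1 fell on high-fat diet in 129S1/SvImJ (list median 0.10 beside -0.004, and 10.4% of all tested genes called), and 1 rose and 4 fell in C57BL/6J (0.14 beside 0.007, and 14.9% called). Por, the electron donor of cytochromes P450, averaged 773 ± 130.5 CPM (SD, n = 6) on high-fat diet and 290 ± 147 CPM (SD, n = 5) on chow in 129S1/SvImJ (log2 fold change 1.41, edgeR adjusted p = 0.00234). Tsku rose there as well (1.53, adjusted p = 0.0207). Avpr1a, a vasopressin receptor, fell in 129S1/SvImJ (-1.35, adjusted p = 0.0078) and in C57BL/6J (-1.91, adjusted p = 0.000297). Elovl3, a fatty acid elongase, fell in C57BL/6J (-1.13, adjusted p = 0.0138) and Lonrf3 rose (0.92, adjusted p = 0.016).

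Lists of genes that respond to other daily signals were read beside the clock genes. Of 16 fasting and feeding genes 2 rose and 2 fell on high-fat diet in each strain (medians -0.26 in 129S1/SvImJ and -0.17 in C57BL/6J). Fasn, the fatty acid synthase gene, fell in 129S1/SvImJ (log2 fold change -1.58, edgeR adjusted p = 0.00326). Of 11 tested temperature-responsive genes 2, Hspa4l (0.69, adjusted p = 0.0112) and Hsp90aa1 (0.78, adjusted p = 0.0141), rose in 129S1/SvImJ and 0 were called in C57BL/6J by edgeR (3 at an unadjusted p under 0.05, 1 by DESeq2 and 0 by limma-voom). Of 12 glucocorticoid-responsive genes 0 were called in either strain by edgeR (1 at an unadjusted p under 0.05 in each), and 1 in 129S1/SvImJ and 0 in C57BL/6J by DESeq2. Their part in the clock gene differences was not tested.

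Mouse identifiers hold a first number shared by 2 to 4 mice of a group, whose meaning the labels do not give, and no number occurs in more than 1 group. A joint edgeR test of the difference between first numbers of the mouse ID within groups called 15 of 14533 genes, 0.103%, and 1 of the 10 clock genes, Clock (adjusted p = 0.0417). At an unadjusted p under 0.05 there were 7 of the 10 clock genes (all but Per1, Per2 and Nr1d1), beside 7.99% of all tested genes. Clock was higher at the lower number in each of the 4 groups, with log2 differences of 0.21 in 129S1/SvImJ on high-fat diet, 0.64 in 129S1/SvImJ on chow, 0.31 in C57BL/6J on high-fat diet and 0.28 in C57BL/6J on chow. Dbp went the other way in each group, with -0.28, -0.71, -0.20 and -0.26 in the same order, and an adjusted p of 0.267. Without the 2 libraries that held adipocyte transcripts the adjusted p of Clock was 0.268, and of the 24 fits without 1 library 3 kept its call (those without replicate 2 or 4 of C57BL/6J on chow or replicate 4 of C57BL/6J on high-fat diet), with adjusted p from 0.0173 to 0.343 over the 24.

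In 129S1/SvImJ on chow replicates 1 to 3 carry the lower number and replicates 4 and 5 the higher one. Clock ran from 91.5 to 109.8 CPM at the lower number and from 58.01 to 67.1 CPM at the higher. Arntl ran from 5.34 to 10.4 CPM at the lower number and read 1.80 and 1.31 CPM at the higher. Dbp ran from 124 to 162 CPM at the lower number and read 210.0 and 241 CPM at the higher. In these 3 genes the numbers did not overlap, nor in Npas2, Per2, Per3 and Nr1d2, while they overlapped in Per1, Cry1 and Nr1d1. With so few livers such a separation can arise by chance, and its share over all tested genes was not computed.

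Nampt, which encodes the enzyme that makes NAD precursors and is driven by CLOCK and BMAL1, was among the 15 genes called (adjusted p = 0.0137 by edgeR). In 129S1/SvImJ on chow it read 41.0, 48.2 and 53.6 CPM at the lower number, and 130.3 and 123 CPM at the higher. In C57BL/6J on chow it read 43.0, 63.8 and 60.4 CPM at the lower number (replicates 1 to 3), and 86.0, 80.9 and 99.5 CPM at the higher (replicates 4 to 6). The numbers did not overlap on chow in either strain. On high-fat diet they overlapped in both, with 112.7 to 129.3 against 117.6 to 177.6 CPM in 129S1/SvImJ and 74.8 to 100.3 against 81.9 to 125.1 CPM in C57BL/6J. Nampt was named because the test between numbers called it, so its separation by number is no further evidence of a difference. An edgeR fit with 1 mean per number sets diet against the spread between mice of the same number. It leaves out the spread between numbers, so its p-values can be too small. That fit called Nr1d1 in 129S1/SvImJ and C57BL/6J for diet (log2 fold changes -1.06 and -0.61, adjusted p = 0.0028 and 0.0337). Per2 was called in 129S1/SvImJ (0.81, adjusted p = 0.0258). In C57BL/6J Clock (-0.37, adjusted p = 0.00191) and Arntl (-0.80, adjusted p = 0.0434) were called, which did not pass in the main fit. Arntl was not called in 129S1/SvImJ (-0.71, adjusted p = 0.203).

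**Figure D5:**
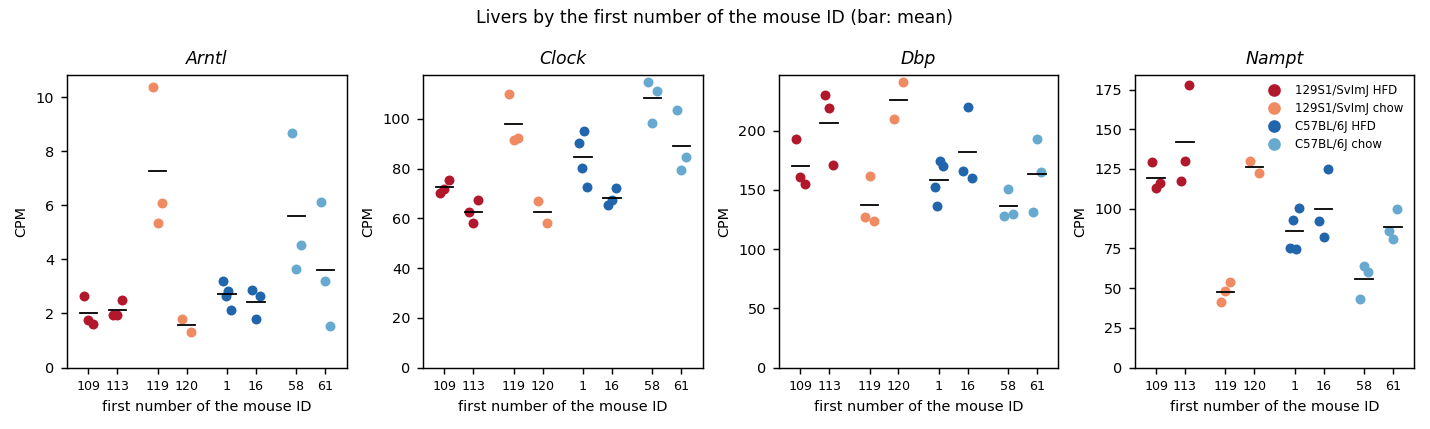
CPM of Arntl, Clock, Dbp and Nampt (vertical axis, from 0) in each liver by the first number of the mouse ID (horizontal axis), coloured by group, with the mean of each number as a bar. In 129S1/SvImJ on chow the lower number is high in Arntl and Clock and low in Dbp and Nampt, with Arntl at 5.34 to 10.4 CPM against 1.80 and 1.31 CPM at the higher.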

How the data were processed

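Total RNA of 24 mouse livers was depleted of ribosomal RNA and made into directional libraries, per the labels' protocols. The authors deposited raw gene counts, as 1 matrix and as 24 files of 1 library each that were identical to it, and variance-stabilized values on a log2 scale. The genome was mm10 and the tools listed were STAR 2.5.4b, Bowtie2 2.2.3, Trimmomatic 0.36 and DESeq2 1.26.0, per the submitters' processing notes. No source used here gives the counting tool, its strand setting or the annotation release. Identifiers were matched to GENCODE M21 (53582 of 53677 rows; the other 95 held 0.0075% of counts). No 2 libraries of a group agreed within sampling noise (lowest chi-square per degree of freedom 5.30 over 61 pairs).

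Counts were tested with edgeR 4.0.16 in R 4.3.3 (robust glmQLFit, TMM, filterByExpr, 1 mean per group, all 24 libraries in 1 fit), with fold changes at a prior count of 0.125. CPM used TMM-scaled library sizes; log2 CPM for correlations used a prior count of 2. Alternatives were DESeq2 1.42.0, limma 3.58.1 (voom, and the deposited log2 values), RLE factors, no filter, fewer samples, and blocks. The scripts were tested on simulated data. Named genes were all 10 clock genes, up to 3 genes of smallest p in each list, the 3 nearest and 3 farthest genes to Arntl and Dbp, genes whose annotation overlaps a member, and library checks; some of these are not reported here. Other genes named were chosen after their values were seen: Nampt as 1 of the 15 genes called by mouse number. The members and lists were chosen with earlier results of these data known.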

Additional observations from a re-analysis of the deposited data

Results flagged for a closer look

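In 2 of 40 sets of values (10 genes in 4 groups) the end value stood far from the rest of its group by Dixon's criterion, and chance gives about 1 in 20. Per1 in replicate 1 of 129S1/SvImJ on chow read 14.7 CPM, the lowest of 5 livers, with the nearest other at 69.3 CPM, a gap of 0.853 of the whole range. The same liver had the highest Arntl, Clock, Npas2 and Nr1d1 of its group. Per3 in replicate 6 of C57BL/6J on high-fat diet read 156 CPM, the highest of 7 livers, with the nearest other at 111 CPM, a gap of 0.641 of the range. That liver also had the highest Per1 and Dbp and the lowest Arntl and Cry1 of its group.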

How the results depend on the processing

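The call of Nr1d1 for the diet effect in 129S1/SvImJ held under each alternative except the high Rn7sk level, where no clock gene was called in either strain; the other calls depended on the setting. For the diet effect in 129S1/SvImJ (3 clock genes called), 1 was called with no filter on low counts, with only the groups compared in the fit, at the low Rn7sk level, without the libraries with adipocyte transcripts and without replicate 1 of both chow groups, 0 at the high Rn7sk level, and 1 to 5 without 1 library. For the diet effect in C57BL/6J (1 called), the numbers were 0 with no filter, at the high Rn7sk level, without the adipocyte libraries and without both chow replicates 1, 3 with DESeq2 and with 1 mean per mouse number, and 0 to 2 without 1 library. With only the groups compared in the fit 1 was called, Clock (edgeR adjusted p = 0.0436), while Nr1d1 was not (0.0573). For the strain difference on high-fat diet (0 called), 2 were called with 1 mean per mouse number and with only the groups compared, 1 with DESeq2, limma-voom, limma on the deposited values, the split of Rn7sk planned first, the high level, and without both chow replicates 1, and 0 to 2 without 1 library. For the strain difference on chow (0 called), 2 were called with 1 mean per mouse number and 0 to 1 without 1 library. The fit with 1 mean per mouse number leaves the spread between numbers out of its error. For the interaction of strain and diet 0 were called throughout. For the difference between first numbers of the mouse ID within groups (1 called), 0 were called with RLE factors (adjusted p of Clock 0.0536) and without the adipocyte libraries, 9 with no filter, and 0 to 1 without 1 library. With no filter 1008 of 30864 genes were called, and the weight given to the shared estimate of the spread was not finite for every gene. For the relations between members across mice (23 called), 3 were called at the high Rn7sk level, 1 on high-fat diet and 1 within first numbers of the mouse ID. The causes were not tested.

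Correlations of same-numbered deviations between groups ran from -0.21 to 0.28. The pairs over 0.1 were 4 of 5 between the chow groups and 1 or 2 in the other comparisons. In each comparison 1 mouse correlated best with its own number. Whether mice of the same replicate number were handled together was not tested. With the replicate block, the clock genes called were 3 for diet in 129S1/SvImJ (Clock, Per2 and Nr1d1), 2 for diet in C57BL/6J (Clock and Nr1d1), 3 between strains on high-fat diet (Clock, Per3 and Nr1d1), 1 on chow (Clock) and 0 for the interaction.

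Some fold changes of genes that were not called turned round. For diet in 129S1/SvImJ, Per1 was 0.12 in the split planned first, 0.075 at the low Rn7sk level, 0.10 with limma-voom, 0.092 with limma on the deposited values, and -0.33 to 0.026 without 1 library. At the low level Per3 was -0.10, Cry1 -0.14 and Dbp -0.16. Nr1d2 was -0.074 at the high level, -0.059 without the adipocyte libraries, -0.055 without both chow replicates 1, and -0.054 to 0.12 without 1 library. For diet in C57BL/6J, Npas2 was -0.25 at the low level, -0.14 without the adipocyte libraries, -0.011 without both chow replicates 1, and -0.19 to 0.27 without 1 library, and Per3 was -0.025 and Dbp -0.027 at the low level. The strain difference of Nr1d2 on high-fat diet was -0.023 and the interaction of Nr1d1 0.0087 at the low level.

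Over all genes, the counts called at the low and high Rn7sk level were 305 and 283 for diet in 129S1/SvImJ (929 without both chow replicates 1, 937 without 129S1/SvImJ chow replicate 1), 312 and 784 for diet in C57BL/6J, 2008 and 1338 between strains on chow, 1 and 0 for the interaction, and 1549 at the low level between strains on high-fat diet. The interaction count of 43 was 17 with the block, 196 in the split planned first, 2 without the adipocyte libraries, 1 without both chow replicates 1, 19 with limma-voom, 297 with DESeq2 and 5 to 170 without 1 library. At the planned high level, with 2 libraries, nothing could be fitted. Depth limits Npas2 and Arntl most.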
